A study of Rosa roxburghii with 15 samples.

Results

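A set of 200 unigenes that were high in mature fruit and in young fruit of Rosa roxburghii, and lower in flower, stem and leaf, was described among the 63727 unigenes measured. A unigene is a transcript locus assembled from the reads without a genome. The members were chosen by a score on the measured values. For each unigene the mean of log2(FPKM + 1) was taken over the 3 libraries of a tissue, where FPKM is the number of fragments of a unigene scaled to its length and to the mapped reads of the library. The score was the lower of the 2 fruit means minus the highest of the flower, stem and leaf means, and the 200 unigenes with the highest score were taken. The values that separate fruit from flower, stem and leaf were therefore used by the choice and are given as a description, without a test.

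Rosa roxburghii, the chestnut rose, is a deciduous shrub and fruit crop whose hip is eaten. Its transcripts were measured by RNA-seq in 15 libraries, 3 each of mature fruit (120 days after flowering), young fruit (50 days after flowering), blooming flower, stem (new shoots) and leaf (mature, without petiole). All came from untreated wild plants grown outdoors in pots at a single site, and the labels and the paper differ on whether 2 or 3 biological replicates were taken. Mature fruit was collected in September, young fruit in July and the other tissues in May, so fruit stage and month cannot be told apart, nor can fruit and month in a comparison with the other tissues. The labels of the deposited samples gave the stage of each fruit library, and a supplementary table of the study appears to give the young and mature fruit columns the other way round. The study's table of MYB levels gives these columns as the labels do. Every direction between the fruit stages rests on the labels. A higher value in a bulk tissue can come from more cells of a type or from more RNA per cell, and these cannot be told apart.

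A rose hip is a fleshy floral cup that encloses the true fruits, small hard achenes. Between the young and the mature stage a hip of this kind expands, softens, changes color and fills with sugars, organic acids and phenolic compounds, while flower, stem and leaf carry out other programs. Genes that are high at both stages are those whose transcripts the fruit holds early and late in this period. MYB transcription factors are a large plant family that switches such programs on or off. The R2R3 MYBs related to MYB4 and MYB308 are known in Arabidopsis and snapdragon as repressors of phenylpropanoid genes, which make lignin and flavonoid precursors.

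Gene names were at hand only for the unigenes of the study's MYB table, each named after its best match in another species. The remaining members could be given only by their identifiers, and their defining cell type or tissue markers could not be checked. Of these MYBs, 2 were members, DN142862_c0_g1, a homolog of MYB4 of peach (Prunus persica), and DN144022_c3_g4, a homolog of MYB308 of peach. Both are repressor homologs. The study designed primers for both transcripts, for its real-time PCR of selected MYBs in the same tissues. It reported that the trends in that PCR were nearly those of RNA-seq. Values of the PCR were not used here. The primers are shown because they are the stretches of sequence by which these members can be measured again. Each is printed 5′ to 3′ in lower case.
DN142862_c0_g1 sense primer: ggtgtgccagtaattcttgat
DN142862_c0_g1 antisense primer: gttgtagacttcgttggatga
DN144022_c3_g4 sense primer: gtgtatgaagcctgatgatgagat
DN144022_c3_g4 antisense primer: tgcgtcgttgcggtaaga

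Summed over all unigenes, a library held 490161 to 563597 FPKM. The files hold no read counts. Values below 0.15 FPKM fall in steps that reflect the number of reads. From the commonest ratio of such values, the deepest library (stem 1) was estimated at 1.51 times the reads of the shallowest (flower 1). This estimate was not compared with the read totals that the study summarized. Replicates of a fruit stage were not evenly ordered over the members. Mature fruit library 1 was the lowest of its 3 in 112 members and the highest in 54, and library 2 was the highest in 95. Young fruit library 1 was the lowest in 68 and the highest in 37, and library 2 was the highest in 102. This order was not counted over all unigenes, so it is not shown to be particular to the members. Mature fruit library 1 also had the lowest FPKM sum of all libraries, at 490161. The counts between the fruit stages are given below with and without mature fruit library 1.

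The scores of the 200 members lay between 1.64 and 6.20 on the log2 scale, with a median of 2.03. Of all unigenes, 11818 had a score above 0 and 687 a score of at least 1. Since the rule favors separate fruit libraries, nothing is read from the next count. In 198 members the lowest of the 6 fruit libraries was above the highest of the other 9. The exceptions were DN149155_c4_g1, at 0.0174, 7.04 and 4.52 FPKM in mature fruit with a lowest value below the 0.0268 FPKM of stem 1, and DN104776_c0_g1, whose 4.35 FPKM in young fruit 3 was below the 4.61 FPKM of flower 1. Just inside the threshold, DN144114_c6_g1 (rank 200, score 1.636) had 22.2, 32.3 and 32.2 FPKM in mature fruit and 32.2, 24.2 and 33.2 FPKM in young fruit, against 8.09, 7.76 and 9.76 FPKM in stem. Just outside it, DN139752_c0_g1 (the next in rank, score 1.634) had 16.5, 18.6 and 16.5 FPKM in mature fruit and 16.6, 21.9 and 17.8 FPKM in young fruit, against 4.83, 4.73 and 5.02 FPKM in stem. Both had the same pattern of high fruit and low stem values, and the threshold marks no gap in the scores.

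**Figure D1:**
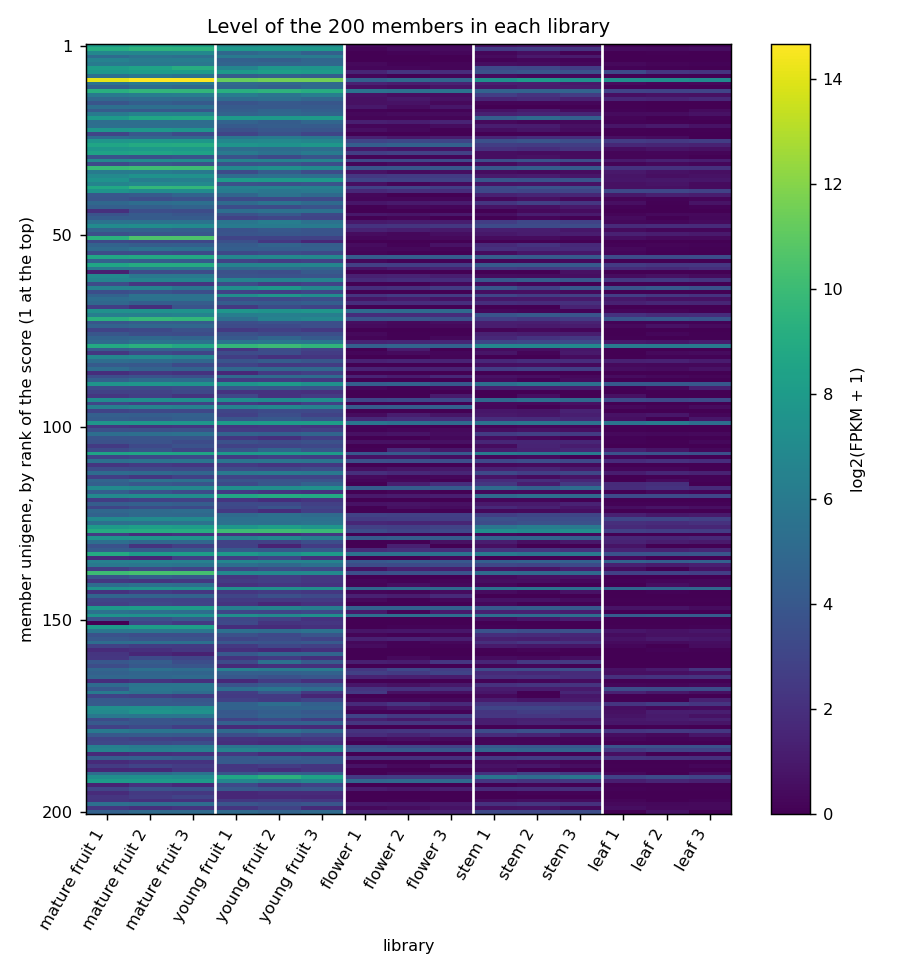
Level of each of the 200 members (rows, by rank of the score) in each of the 15 libraries (columns), as log2(FPKM + 1) on the color scale. The 6 fruit libraries are lighter than the other 9 in nearly every row, and among the others the 3 stem libraries are lighter than leaf or flower in many rows.

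The highest score belonged to DN59919_c0_g1. Its level was 264, 345 and 328 FPKM in mature fruit and 115, 144 and 114 FPKM in young fruit, against 0.295, 0.218 and 0.268 FPKM in flower, 0.660, 0.861 and 0.582 FPKM in stem and 0.0484, 0 and 0.0864 FPKM in leaf. No fruit library overlapped any other. DN146851_c7_g2 followed, with 546, 725 and 694 FPKM in mature fruit and 233, 244 and 238 FPKM in young fruit, against 0.15, 0.376 and 0.332 FPKM in flower, 4.52, 5.27 and 3.76 FPKM in stem and 0.428, 0.366 and 0.448 FPKM in leaf. In both of these unigenes mature fruit was above young fruit in all libraries, and stem was the highest of the other tissues.

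The members covered a wide range of abundance. The mean over the 6 fruit libraries was 2.93 to 12896 FPKM, with a median of 23.7 FPKM and quartiles of 9.35 and 84.2 FPKM. In 42 members it was at least 100 FPKM and in 55 it was under 10 FPKM. Tissue means had a median over the members of 28.6 FPKM in mature fruit and 15.3 FPKM in young fruit, against 0.556 FPKM in flower, 1.17 FPKM in stem and 0.263 FPKM in leaf. The mean was under 1 FPKM in 117 members in flower, 89 in stem and 140 in leaf, so most members were under this level in flower and in leaf, but not in stem. The coefficient of variation over the 3 libraries had a median over the members of 12.3% in mature fruit and 12.7% in young fruit. Over all tested unigenes of at least 1 FPKM in the tissue it was 14.9% and 15.3%. These unigenes were not matched to the members by level, so nothing is read from the difference.

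DN141550_c0_g4 was the most abundant member. It had 17703, 25997 and 25267 FPKM in mature fruit, where it was the most abundant of all unigenes in each library. In young fruit it had 2441, 3026 and 2942 FPKM and ranked 4 in each library, against 21.5, 30.0 and 27.0 FPKM in flower, 159, 240 and 165 FPKM in stem and 152, 147 and 122 FPKM in leaf. The next in abundance was DN175608_c0_g1, which was higher in young fruit. It had 522, 531 and 560 FPKM in mature fruit and 1077, 1111 and 974 FPKM in young fruit, against 156, 122 and 153 FPKM in stem. Its difference between the fruit stages did not reach the thresholds of the fit given below. These unigenes were members although stem libraries held over 100 FPKM of each.

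Together the 200 members made up 7.19%, 9.10% and 9.01% of the FPKM sum in the mature fruit libraries and 2.53%, 2.74% and 2.67% in the young fruit libraries. The share was 0.144% to 0.154% in flower, 0.305% to 0.310% in stem and 0.115% to 0.126% in leaf. Without DN141550_c0_g4 the other members made up 3.58% to 4.08% in mature fruit and 2.07% to 2.21% in young fruit, so the step between the fruit stages was smaller but the libraries still did not overlap. The share in stem was above that in flower and leaf in every library.

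**Figure D2:**
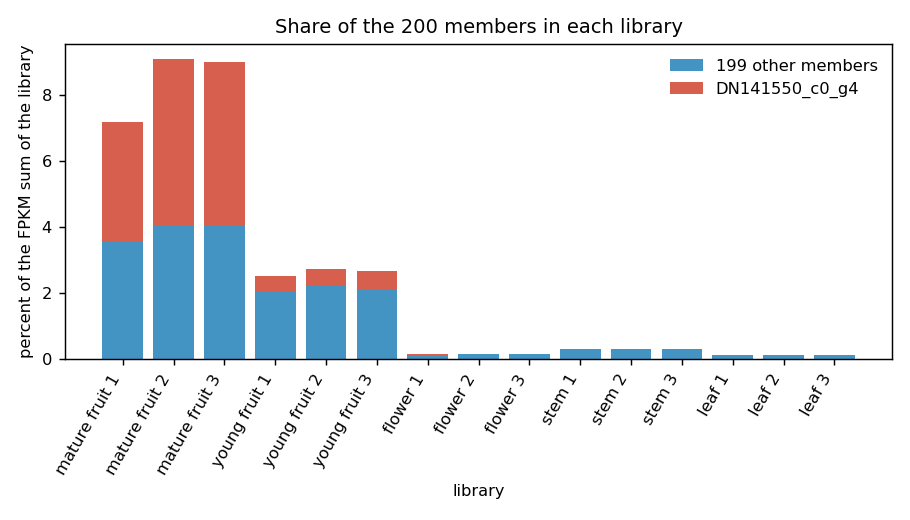
Percent of the FPKM sum of each library taken by the 200 members (bar height), split into DN141550_c0_g4 (red) and the other members (blue). The mature fruit bars reach 7.19% to 9.10%, the young fruit bars 2.53% to 2.74%, and no bar of flower, stem or leaf is above 0.310%.

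Many members were listed at 0 in some library outside fruit, but few in every such library. All 200 were above 0 in each of the 6 fruit libraries, 75 were listed at 0 in at least 1 of the 9 libraries of flower, stem and leaf, and 6 were listed at 0 in all 9. These 6 had fruit means of 3.68 to 12.5 FPKM. Among all 63727 unigenes, 667 were above 0 in every fruit library and at 0 in the other 9. The share of all unigenes at 0 in at least 1 of the 9 was not taken, so nothing is read from the count of 75. With no read counts in the files, a 0 is no proof that the transcript was absent.

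The choice of members was repeated on the libraries of 2 replicate numbers, and the score was then read in the 5 libraries of the number left out. The replicate numbers were taken as names that do not pair the samples. With number 1 left out, the 200 unigenes chosen had a median score of 1.97 in the libraries left out, against 2.05 in the libraries that chose them. The medians were 1.99 and 2.02 with number 2 left out and 1.99 and 2.09 with number 3 left out. In the libraries left out the score was at or below 0 for 4, 3 and 3 of the 200 unigenes and at least 1 for 189, 189 and 188, whereas 14% to 14.6% of all unigenes had a score above 0 there. The 3 lists shared 185, 177 and 181 unigenes with the members. The libraries left out shared tissue, month and site with those that chose, and may not all be separate biological replicates. Close scores are therefore no independent support for the members.

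Pairs of tissues were compared with limma on log2(FPKM + 0.1), with 1 mean per tissue over all 15 libraries. To be called, a unigene needed a log2 fold change of 1 or more in size and an adjusted p (Benjamini-Hochberg) no larger than 0.01. These are also the thresholds of the study. A unigene entered the test if 3 or more libraries held over 0.1 FPKM, which left 51175, and all 200 members were among them. In 193 members both fruit stages were called higher than each of the other tissues, against 3% of all unigenes tested. Since the rule used these contrasts, nothing is read from this count.

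Mature fruit was compared with young fruit because the rule did not set the direction of this pair. It did take the lower fruit mean, so no member could be near 0 in either stage. Of the 200 members, 61 (30.5%) were called higher in mature fruit and 9 (4.5%) were called lower, while 130 were not called (limma). Of all unigenes tested, 8.06% were called higher and 22.1% lower. The filter let in unigenes near 0 in a fruit stage, which the rule bars from the members. These shares therefore compare sets that differ in level. The median log2 fold change of mature over young fruit was 0.50 over the members, with quartiles of -0.12 and 1.37, and -0.12 over all unigenes tested. The 3 mature fruit libraries lay above the 3 young fruit libraries in 103 members and below them in 32, and the stages overlapped in the rest. Of all unigenes tested, 18.6% had all mature fruit libraries above and 31.1% below. Without mature fruit library 1, 55 members were called higher and 9 lower. With library 1 as the only mature fruit library, assumed to vary like the other tissues, 43 were called higher and 10 lower.

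The strongest rise was that of DN148682_c1_g4. It had 656, 1490 and 1534 FPKM in mature fruit, against 6.97, 6.72 and 6.42 FPKM in young fruit. Mature fruit was higher by 7.40 on the log2 scale (SE 0.29, limma adjusted p = 3.42e-10). Flower, stem and leaf libraries were all below 0.5 FPKM for this unigene, so young fruit was also above them. DN142779_c3_g3 had 240, 291 and 296 FPKM in mature fruit, against 2.86, 2.45 and 3.12 FPKM in young fruit, higher by 6.57 on the log2 scale (SE 0.27, limma adjusted p = 4.76e-10). In both unigenes mature fruit library 1 was the lowest of its tissue and was still far above young fruit.

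Falls were fewer and smaller. DN149235_c6_g4 had 3.89, 2.14 and 1.59 FPKM in mature fruit, against 15.7, 25.8 and 25.7 FPKM in young fruit, with a limma adjusted p of 2.73e-06 for a log2 fold change of -3.15 (SE 0.32), and it was listed at 0 in the other 9 libraries. DN144975_c2_g6 had 3.09, 10.6 and 9.58 FPKM in mature fruit, against 38.3, 44.5 and 42.8 FPKM in young fruit (limma log2 fold change -2.60 ± 0.55 SE, adjusted p = 0.00140). The stages did not overlap in either unigene, but in DN144975_c2_g6 the call was lost with a pseudocount of 0.01 (limma adjusted p = 0.0684). The other 7 members called lower had log2 fold changes of -2.37 to -1.02, with means of 3.05 to 146 FPKM in mature fruit and 16 to 471 FPKM in young fruit.

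**Figure D3:**
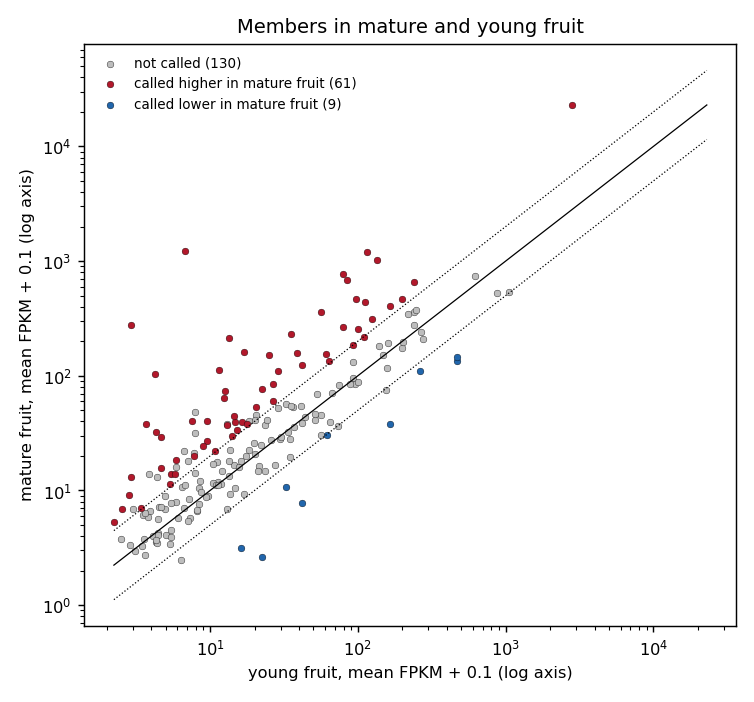
Mean FPKM + 0.1 of each member in mature fruit (vertical, log axis) against young fruit (horizontal, log axis), each point a member and each mean over 3 libraries. The solid line marks equal levels, the dotted lines a factor of 2. The 61 red points (called higher in mature fruit) outnumber the 9 blue points (called lower), and DN141550_c0_g4 is the point at the top right.

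The next question was which tissue came closest to fruit. The rule used the highest mean of flower, stem and leaf but not which of them it was. Of the 194 members above 0 in at least 1 of these 9 libraries, stem was the highest in 144 (74.2%), flower in 36 (18.6%) and leaf in 14 (7.22%). Among the unigenes tested that were above 0 there, stem was the highest in 38.6%, flower in 37.0% and leaf in 24.4%.

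In the fit, 109 members (54.5%) were called higher in stem than in leaf and 2 (1%) lower, against 14.1% higher and 9.75% lower of all unigenes tested (limma). The median log2 fold change of stem over leaf was 1.46 over the members and 0.05 over all unigenes tested. Between flower and stem, 16 members were called higher in flower and 83 (41.5%) lower, against 10.1% and 8.94% of all unigenes tested, with a median log2 fold change of -0.97 over the members. Between flower and leaf, 55 members (27.5%) were called higher in flower and 16 (8.00%) lower, against 12.2% and 6.56%, with a median of 0.28. The share lower in flower than in leaf was close to the background. With a pseudocount of 1, which weighs low values less, the 109 members higher in stem than in leaf became 69 and the 83 lower in flower than in stem became 48, against 8.90% and 5.60% of all unigenes tested. For flower against leaf the counts became 30 higher and 7 lower with that pseudocount, against 7.66% and 4.44%, and median-of-ratios scaling moved the members' median to 0.09.

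Stem was called higher than both flower and leaf in 67 members, against 6.33% of all unigenes tested. Flower was called higher than both stem and leaf in 14 members, against 4.60%, and leaf higher than both stem and flower in 1 member, against 3.96%. In 62 members none of the 3 pairs was called, against 65.2% of all unigenes tested.

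The strongest difference between stem and leaf was that of DN147860_c0_g2. It had 18.9, 32.9 and 21.0 FPKM in stem, against 0.167, 0 and 0.119 FPKM in leaf (limma log2 fold change 7.04 ± 0.33 SE, adjusted p = 2.72e-09). Flower was as low as leaf, at 0.140, 0.135 and 0.132 FPKM, and mature fruit had 231, 404 and 445 FPKM and young fruit 240, 230 and 256 FPKM. Stem thus lay between fruit and the other tissues, with no overlap on either side. The fold change depends on the pseudocount, at 4.49 with 1 and 8.59 with 0.01. A further member, DN147860_c0_g1, belongs to the same assembled component and had 0.860, 0.750 and 1.61 FPKM in stem, while it was listed at 0 in all flower and leaf libraries.

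The flower counterpart was DN147752_c1_g1, with 35.2, 34.1 and 32.0 FPKM in flower, against 0.216, 0.136 and 0.0821 FPKM in leaf (limma log2 fold change 7.15 ± 0.19 SE, adjusted p = 4.31e-11) and 0.232, 0.163 and 0.105 FPKM in stem (limma log2 fold change 7.01, adjusted p = 6.85e-11). Its fruit values were 169, 179 and 176 FPKM in mature fruit and 204, 186 and 208 FPKM in young fruit. Flower was lowest relative to leaf in DN85304_c0_g1, with 0.231, 0 and 0 FPKM in flower, against 0.939, 1.44 and 1.23 FPKM in leaf. The difference was -3.11 ± 0.40 SE on the log2 scale (limma adjusted p = 3.41e-05) and -1.03 with a pseudocount of 1, since flower was listed at 0 in all but 1 library. DN144812_c0_g1 was the only member in which leaf was called higher than both stem and flower. It had 1.19, 1.13 and 1.11 FPKM in stem, against 9.65, 9.06 and 9.63 FPKM in leaf (limma log2 fold change -2.94 ± 0.35 SE, adjusted p = 1.40e-05). The other member called lower in stem than in leaf was DN146642_c5_g6, with 5.5, 4.11 and 4.87 FPKM in stem, against 13.5, 15.5 and 12.9 FPKM in leaf (limma log2 fold change -1.52, adjusted p = 0.000766).

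**Figure D4:**
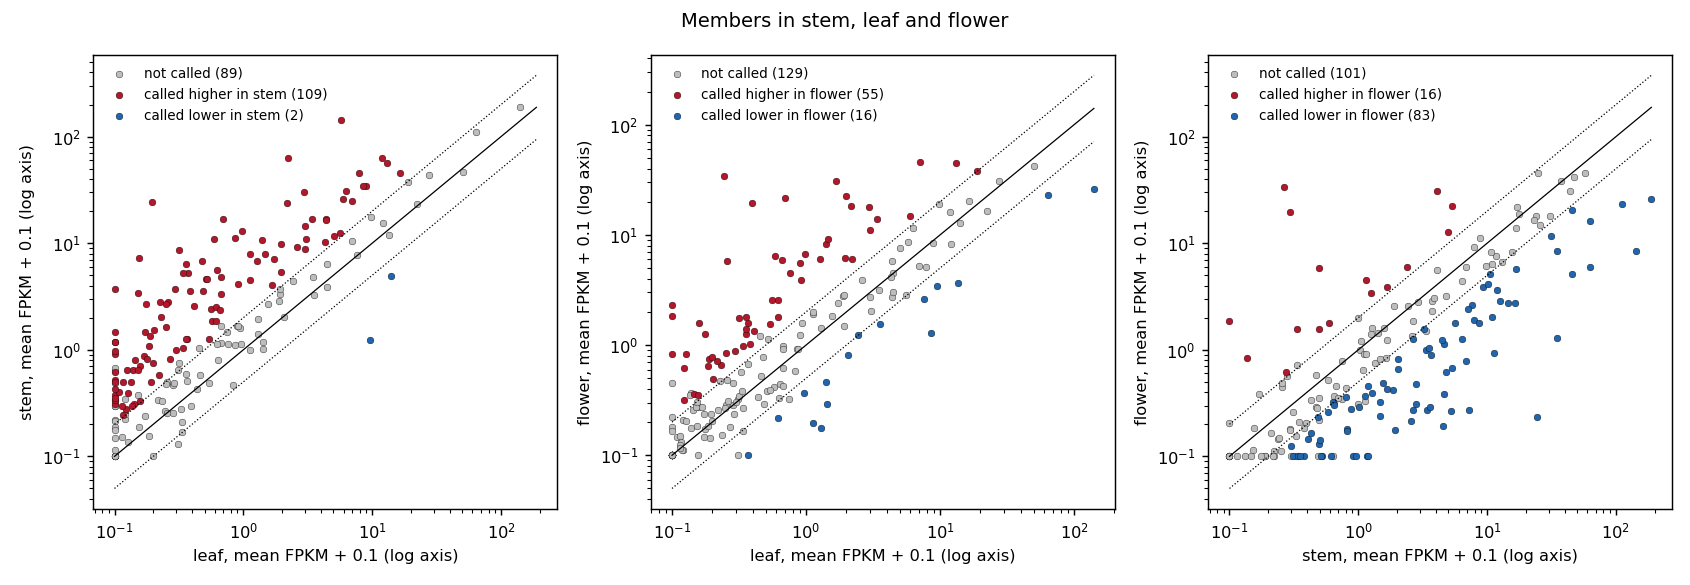
Mean FPKM + 0.1 of each member (log axes, means over 3 libraries) in stem against leaf, flower against leaf and flower against stem, with the same lines and colors as for the fruit stages. Most colored points lie above the line in stem against leaf (109 above, 2 below) and below it in flower against stem (16 above, 83 below).

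The MYB4 homolog DN142862_c0_g1 ranked 19 among all unigenes by the score, and 68 with a pseudocount of 0.1. It had 64.0, 95.0 and 94.0 FPKM in mature fruit and 24.7, 28.8 and 25.8 FPKM in young fruit, against 0.266, 0.326 and 0.354 FPKM in flower, 1.52, 1.88 and 1.84 FPKM in stem and 0.355, 0.402 and 0.661 FPKM in leaf. Mature fruit was above young fruit in every library (limma log2 fold change 1.65 ± 0.20 SE, adjusted p = 1.35e-05), although mature fruit library 1 lay well below the other two. Without that library the log2 fold change was 1.84. Stem was called higher than leaf (limma log2 fold change 1.72 ± 0.20 SE, adjusted p = 1.25e-05), a call that was lost with a pseudocount of 1 (log2 fold change 0.90), and flower was called lower than stem (limma log2 fold change -2.15 ± 0.20 SE, adjusted p = 2.23e-06), while flower and leaf were not called apart (limma adjusted p = 0.125).

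The MYB308 homolog DN144022_c3_g4 ranked 78, but 412 with a pseudocount of 0.1 in the score, which leaves it out of the first 200. It had 31.5, 46.6 and 44.9 FPKM in mature fruit and 49.6, 53.3 and 50.1 FPKM in young fruit, against 1.63, 1.81 and 2.02 FPKM in flower, 7.48, 7.66 and 8.30 FPKM in stem and 1.03, 0.846 and 1.22 FPKM in leaf. All 3 mature fruit libraries lay below the young fruit libraries, but the difference was not called (limma log2 fold change -0.33 ± 0.15 SE, adjusted p = 0.0892). Stem was called higher than leaf by 2.82 on the log2 scale (SE 0.15, limma adjusted p = 8.35e-09). In both MYB members stem was the next tissue after fruit, as in most members, and the fruit stage with the higher mean was mature fruit for the MYB4 homolog and young fruit for the MYB308 homolog.

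The third MYB by score, the repressor homolog DN144339_c1_g4 (MYB6-like, named after a pear protein), lay outside the members at rank 442 with a score of 1.23. It had 29.7, 32.4 and 31.6 FPKM in mature fruit and 27.5, 28.2 and 26.8 FPKM in young fruit, against 10.7, 10.9 and 11.9 FPKM in flower, 9.73, 11.9 and 9.66 FPKM in stem and 4.83, 4.55 and 4.53 FPKM in leaf. Its levels in flower, stem and leaf were above those of both MYB members. The other 7 of the 10 MYBs with the highest scores ranked from 1379 to 3996. They were the MYB306-like DN145149_c1_g1 and DN146048_c0_g6, the R2R3 MYB DN234092_c0_g1, the APL homolog DN139053_c0_g1 (in Arabidopsis APL sets the identity of phloem), the MYB12-like DN145308_c4_g7, DN144228_c3_g1 (MYB3R-3, named after a cell cycle regulator) and DN143733_c1_g1, whose best match is a MYB of Rosa rugosa. DN234092_c0_g1 had only 0.350, 0 and 2.09 FPKM in mature fruit and 0, 0.677 and 2.31 FPKM in young fruit, against 0.421 FPKM in stem 3. DN139053_c0_g1 had 27.0, 28.8 and 29.3 FPKM in mature fruit and 27.2, 26.0 and 26.0 FPKM in young fruit, against 18.0, 20.4 and 18.0 FPKM in stem.

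In the MYB table, 19 (11.7%) had a score above 0, against 18.5% of all unigenes, and the median score was -0.82 over the MYBs and -0.20 over all unigenes. The 2 members are 1.23% of the MYBs, and the members are 0.314% of all unigenes. By the lists made from the descriptions, 5 of 25 repressor homologs had a score above 0 and 2 were members. This list held homologs of MYB4, MYB308, MYB330, MYB6, MYB3 and MYB5. It was grouped by name only, so not every entry need be a repressor. Scores above 0 were found in 3 of 16 barrier homologs (MYB306, MYB36 and relatives), 1 of 12 flavonoid and anthocyanin activator homologs, 1 of 5 secondary wall homologs and none of 19 trichome and epidermis homologs, and none of these was a member. Of the 21 repressor homologs tested, 2 were called higher and 7 lower in mature than in young fruit, with a median log2 fold change of -0.62 (limma), against 8.06% higher and 22.1% lower of all unigenes tested. Other lists also held more MYBs called lower than higher, with 1 higher and 4 lower of 11 activator homologs, 0 and 4 of 5 secondary wall homologs, 0 and 2 of 12 barrier homologs and 1 and 4 of 17 trichome and epidermis homologs. An insect protein was the best match of 3 MYBs, the only list at hand for material of another organism, and these were not members. Of these, 0 passed the filter on low values, so nothing is read from their absence.

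**Figure D5:**
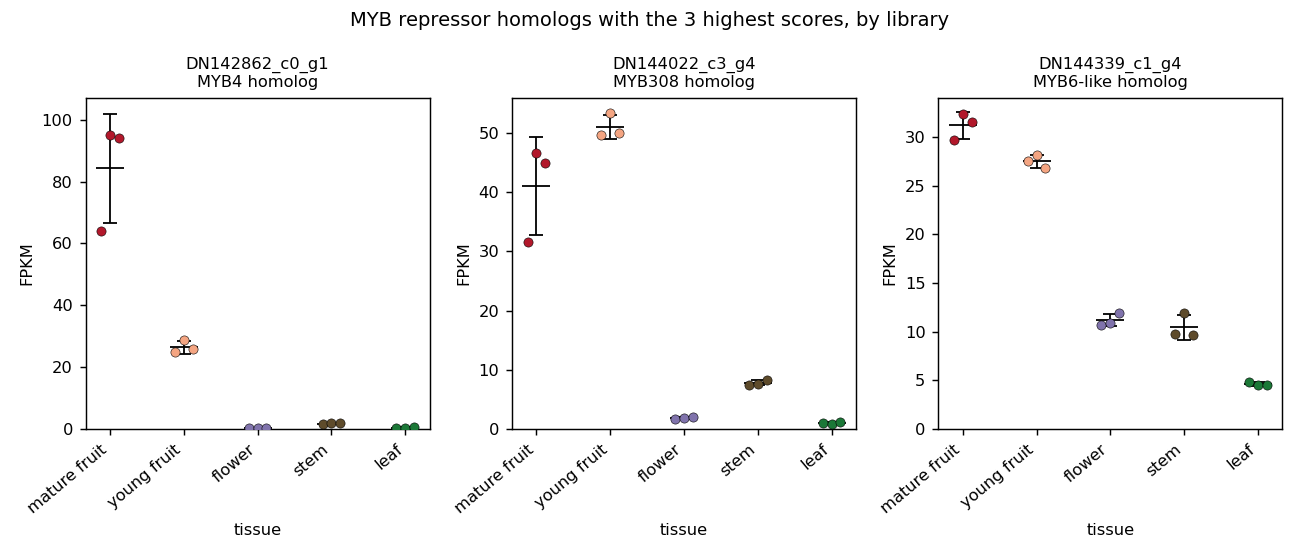
FPKM of the 3 repressor homologs with the highest scores in each library (points), with the mean and SD of each tissue over 3 libraries (bars). The MYB4 and MYB308 homologs, both members, are above 24 FPKM in all fruit libraries and below 9 FPKM elsewhere, while the MYB6-like homolog, no member, also reaches 11.9 FPKM in flower and stem.

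The assembler groups unigenes that share sequence into components, and reads may be shared within them. The 200 members came from 190 components, of which 9 held more than 1 member and 1 held 3. That component gave DN146789_c0_g4, at 480, 639 and 455 FPKM in mature fruit and 824, 1036 and 769 FPKM in young fruit, and DN146789_c0_g3 and DN146789_c0_g1 at lower levels. Its members do not count as separate observations. Of the members, 57 (28.5%) were alone in their component, against 46.0% of all unigenes. The components also held 477 unigenes that were not members. Of these mates, 122 (25.6%) had a score above 0 and 13 (2.73%) a score of at least 1, against 18.5% and 1.08% of all unigenes, and their median score was -0.28. Most mates therefore did not have the fruit pattern of the member beside them.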

How the data were processed

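RNA-seq values of 15 libraries, 3 per tissue, were used, grouped by the tissue in the sample titles. Reads were trimmed (Trimmomatic, per the submitters' processing notes), assembled with Trinity, aligned with Bowtie2 and quantified with RSEM, and the authors deposited FPKM per unigene and library. For these tools the sources used here give no version. No counts are in the files, so no counting interval is given.

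The score used log2(FPKM + 1). Pairs of tissues were fitted with limma 3.58.1 in R 4.3.3 (trended prior variance) on log2(FPKM + 0.1), which understates changes of low unigenes, and p-values were adjusted within each pair. The script was tested on simulated data. Scores, counts and plots used numpy 2.4.6, pandas 2.3.3 and matplotlib 3.10.9 under Python 3.11.15.

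Members and lists were chosen with earlier results of these data known. MYBs named are the members and the next by score until 10. Other unigenes are named for the 2 highest scores, the 2 highest fruit means, the last rank inside and the first outside the list, and the largest called changes with separate libraries (2 each way between fruit stages, 1 elsewhere). DN149155_c4_g1, DN104776_c0_g1, DN146642_c5_g6, DN147860_c0_g1 and the DN146789_c0 unigenes were named after their values were seen. Alternatives were other pseudocounts, filters, scaling, variance and p settings, list sizes, a replicate block and leaving out libraries. The p-values measure only the spread between libraries, part of which may be technical.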

Additional observations from a re-analysis of the deposited data

How the results depend on the processing

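Which unigenes are members depends on the pseudocount of the score. Of the 200, 94 were shared with the list made with a pseudocount of 0.1 and 27 with that of 0.01, against 192 with median-of-ratios scaling and 173 with the lowest fruit library minus the highest other library, and 186 to 200 when a library was left out. With a pseudocount of 1 in the fit, the members called higher and lower were 69 and 2 for stem against leaf, 30 and 7 for flower against leaf, and 10 and 48 for flower against stem. Leaving out a library in turn gave 51 to 65 members higher and 8 to 10 lower in mature than in young fruit, 104 to 111 and 2 for stem against leaf, 53 to 58 and 14 to 16 for flower against leaf, and 14 to 16 and 75 to 84 for flower against stem. Among the first 400 unigenes by score, 4.75% were called higher in flower than in stem, against 8.00% of the 200. With the replicate block, 60 members were higher and 9 lower in mature than in young fruit, and for flower against stem 15 and 81. Deviations of libraries with the same number from their tissue means had correlations of -0.042 to 0.061 over 30 pairs of libraries. For different numbers the correlations were -0.070 to 0.059 over 60 pairs. The ranges were alike, which gives no sign of pairing but cannot exclude it. Median-of-ratios scaling gave 52 higher and 11 lower between the fruit stages and moved the members' median of flower over leaf to 0.09. The cause of these shifts was not tested. Of the single unigenes and MYBs compared between tissues, DN144975_c2_g6 lost its call between the fruit stages with a pseudocount of 0.01 and the MYB4 homolog its call of stem over leaf with a pseudocount of 1 (log2 fold change 0.90), and no other call of those recomputed changed. Values near 0.1 FPKM rest on few reads and limit the comparisons among flower, stem and leaf.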
